A study of Mus musculus with 8 samples.

Results

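The genes described here encode the machinery of the lysosome: 53 genes for its digestive enzymes, the cofactors of those enzymes, proteins of its membrane, subunits of its proton pump, and a pair of transcription factors that control such genes. They were picked by symbol from the 55471 genes of the count table, by function and not by a measured value, and each symbol matched a single row. Earlier results of these data were known when the list was chosen. RNA came from SV-LECs, a mouse line of lymphatic endothelial cells derived from mesenteric adventitial tissue and immortalized with SV40. The cells had either received no treatment or 10 ng/ml of the cytokine TGFβ1 for 72 h, and 4 libraries were sequenced from each group. All libraries thus came from 1 immortalized line, and the study's methods call the 4 samples of a group technical replicates, so every SD and p-value below covers the spread between such samples and not between independent experiments.

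Libraries held 18952504 to 26386941 counted reads, and levels are given in CPM, counts scaled to a common library size that allows for differences in composition. Lymphatic endothelial identity was only partly visible: 7 of 10 markers had a mean under 1 CPM, Tie1 and Ccl21a had no read in any library, and Prox1, Lyve1, Pecam1 and Cdh5 had means of 0 to 0.168 CPM per group. The 3 markers above that level did not move together: Pdpn fell from 342 to 313 CPM (log2 fold change -0.13), while Flt4 rose from 21.6 to 29.3 CPM (0.44) and Kdr from 11.6 to 22.1 CPM (0.93). The 10 markers summed to 357 to 394 CPM in untreated and 359.9 to 369.9 CPM in treated libraries, most of it Pdpn. On a list of 6 TGFβ response genes, 5 were higher, beside 37.6% of all genes tested. The response was plain in the sum of the list, which went from 946 to 996 CPM to 3132 to 3307 CPM. The remaining gene, Tgfbi, had at most 3 reads in any library and was not tested. Because the RNA was extracted in bulk, fewer cells of a type and less RNA per cell cannot be told apart.

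Lysosomes are acidic organelles in which proteins, glycans and lipids are broken down to units that the cell can use again. Their soluble hydrolases are made in the endoplasmic reticulum, tagged with mannose 6-phosphate in the Golgi and carried to the lysosome by receptors, while a vacuolar proton pump keeps the lumen acidic and heavily glycosylated membrane proteins line the inner face. Many genes for these parts carry a short palindromic element near their start, the CLEAR element, which is bound by TFEB and TFE3. In endothelial cells lysosomes take part in receptor turnover, autophagy and degradation of matrix taken up from outside.

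Most lysosomal transcripts were more abundant after TGFβ1, but by small amounts. Of the 53 genes, 52 passed the filter on low counts, and 32 were significantly upregulated and 11 significantly downregulated (edgeR likelihood ratio test, FDR under 0.05 over all 13818 genes tested). These are 61.5% and 21.2% of the members, beside 37.6% higher and 38.0% lower among all genes tested, of which 75.6% passed in either direction. The median log2 fold change was 0.21 over the members and -0.0064 over all genes tested. With 75.6% of all genes called, counts by role or list below are descriptions, and no set was tested. Ctss, which encodes cathepsin S of antigen-presenting cells, was the member that did not pass: it had no read in any library, and 3 reads, the limit that a count of 0 allows, would be 0.113 to 0.162 CPM.

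The size of the changes set a few genes apart. The log2 fold change was under 0.5 in either direction for 36 members, 27 of which still passed the test, and over 1 in either direction for 7. Tested against a change of 1.5-fold (glmTreat in edgeR, FDR under 0.05), 8 members were higher and 3 lower. These are 15.4% and 5.77% of the members, beside 14.5% and 10.6% of all genes, so the share of members with a large rise was close to the background. The 8 were Man2b1, Ctsf, Tpp1, Ctsd, Ctsh, Fuca1, Gusb and Atp6v0d1, and the 3 were Gm2a, Tfeb and Ctsl.

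Replicate libraries lay close together. The SD over 4 libraries had a median of 3.63% of the mean over the members and groups, with 20.0% as the highest value, and SEs of log2 fold changes were between 0.0362 and 0.155. All 4 TGFβ1 libraries lay above all 4 untreated libraries for 31 members and below them for 11, which is 59.6% and 21.2%, beside 34.7% and 35.1% of all genes tested. For each of these 42 members an exact two-sided permutation test gave p = 0.0286, the smallest that 4 against 4 libraries allow. Groups without overlap always give this value, so it adds nothing to the separation itself. The exception among the called members was Grn, the precursor of the granulins, whose groups overlapped (log2 fold change 0.088, edgeR FDR = 0.0482). That call was lost with DESeq2 (FDR = 0.0651) and in 7 of the 8 fits that left out a library.

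**Figure D1:**
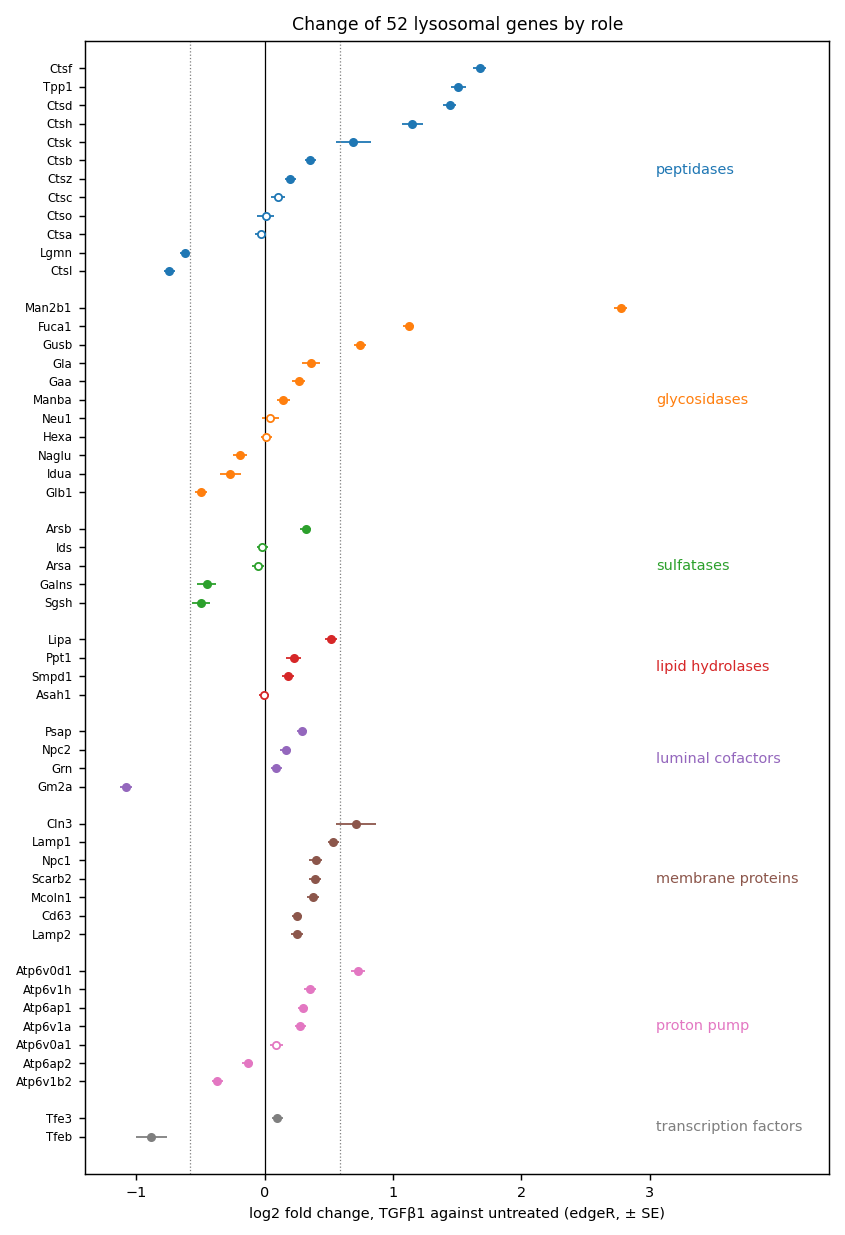
Log2 fold change of each of the 52 tested lysosomal genes, TGFβ1 against untreated (x axis, points with ± SE from edgeR), grouped by role. Filled points passed an FDR of 0.05, open points did not, and dotted lines mark 1.5-fold; all 7 membrane genes sit right of 0, and Man2b1 at 2.77 lies far from the rest.

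Near the start of 7 members stood the 8-base palindrome TCACGTGA, a form of the CLEAR element. Promoter windows of RefSeq (GRCm38.p6, 250 bases before to 50 bases after a start) were at hand for 46 members, and 15.2% of these held the motif, beside 1.13% of the 27025 genes with a window. That background includes genes that were not tested here. As stated above, the element is known from lysosomal genes, so the higher share among members is not a separate result. Among tested genes with a window, 221 held the motif and 9981 did not, of which 7 and 38 were members. Asah1, Atp6v1b2, Atp6v1h, Ctsb, Ctsh, Galns and Npc1 had no window in the table. The 7 with the motif were Atp6v0d1, Atp6v1a, Cln3, Ctsa, Ctsd, Gla and Mcoln1. The windows of the 3 among them with the largest log2 fold change are shown, with TCACGTGA and the shorter CACGTG, which lies inside it, in capitals; both read the same on either strand.
Ctsd (chr7:142387778-142388077, minus strand): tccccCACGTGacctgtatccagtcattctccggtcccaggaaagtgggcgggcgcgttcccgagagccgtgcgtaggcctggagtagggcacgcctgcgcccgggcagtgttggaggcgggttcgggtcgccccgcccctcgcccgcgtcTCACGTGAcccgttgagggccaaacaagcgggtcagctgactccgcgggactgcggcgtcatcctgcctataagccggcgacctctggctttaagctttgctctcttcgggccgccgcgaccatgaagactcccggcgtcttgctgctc
Atp6v0d1 (chr8:105566015-105566314, minus strand): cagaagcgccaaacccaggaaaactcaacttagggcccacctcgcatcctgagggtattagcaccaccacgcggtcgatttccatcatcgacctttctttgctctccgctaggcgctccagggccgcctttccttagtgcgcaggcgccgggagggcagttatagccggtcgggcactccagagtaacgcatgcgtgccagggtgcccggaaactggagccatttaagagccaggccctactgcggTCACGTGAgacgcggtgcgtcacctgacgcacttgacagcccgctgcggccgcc
Cln3 (chr7:126583187-126583486, minus strand): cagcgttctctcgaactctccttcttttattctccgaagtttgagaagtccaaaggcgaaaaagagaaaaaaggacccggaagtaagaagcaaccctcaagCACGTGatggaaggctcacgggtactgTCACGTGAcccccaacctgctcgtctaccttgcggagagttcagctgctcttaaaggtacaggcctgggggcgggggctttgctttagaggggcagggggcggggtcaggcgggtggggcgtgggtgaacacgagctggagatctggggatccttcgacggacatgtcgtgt
The first base of TCACGTGA lay 99 bases before the start in Ctsd, 4 before it in Atp6v0d1 and 122 before it in Cln3, which also has another window without the motif.

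Of the 7 genes with the motif, 6 rose and none fell, with a median log2 fold change of 0.38; the exception was Ctsa (log2 fold change -0.033). Of the 38 tested members whose windows lacked it, 22 rose and 9 fell, with a median of 0.15. Among all tested genes with a window, 47.1% of the 221 with the motif and 38.2% of the 9981 without it were higher, and 33.0% and 38.9% were lower. The shorter core CACGTG stood in 16 of 46 members, the 7 with the full palindrome included, and in 8.09% of all genes with a window, tested or not. Among tested genes with a window, 1186 held the core and 9016 did not. Of those 16 members 9 rose and 5 fell, and of the 29 tested members without the core 19 rose and 4 fell. Among all tested genes, 40.0% of those with the core and 38.1% of those without it were higher, and 38.2% and 38.9% were lower. Lamp1 held 4 copies of the core, at 61, 45, 28 and 15 bases before its start. These matches describe letters in a window and not binding.

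TGFβ1 shifted the make-up of the peptidases, the enzymes that cut proteins. Of 12 tested, 7 rose, 2 fell and 3 did not pass, beside 37.6% higher and 38.0% lower among all genes tested. The median log2 fold change was 0.28. The risers were led by cathepsin F, tripeptidyl peptidase 1 and cathepsin D, while cathepsin L and legumain fell. Ctsf (ENSMUSG00000083282, chr19:4855130-4860918, GRCm38) encodes a papain-like cysteine protease and had the largest log2 fold change of the group. Its level was 53.2, 57.7, 58.7 and 55.0 CPM in untreated replicates 1 to 4 and 171, 188, 178 and 180.5 CPM after TGFβ1, so that the lowest treated library lay more than 2-fold above the highest untreated one. The log2 fold change was 1.67 (SE 0.0487, edgeR FDR = 3.12e-252).

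Tpp1 (ENSMUSG00000030894, chr7:105744811-105752235) encodes a serine protease that removes tripeptides from protein ends. It was measured at 156, 157, 172 and 171 CPM without and 466, 511, 449.5 and 439 CPM with TGFβ1, a log2 fold change of 1.51 (SE 0.0555, edgeR FDR = 1.74e-155). Ctsd (ENSMUSG00000007891, chr7:142375911-142388038) encodes the main aspartic protease of the lysosome. It was measured at 239, 243, 275 and 256 CPM in the untreated and 684, 719, 684 and 667 CPM in the treated libraries, with a log2 fold change of 1.44 (SE 0.0494, edgeR FDR = 1.40e-179). In both genes the lowest treated library was more than 2-fold above the highest untreated one. On the same strand, 34.4% of the exon bases of Ctsd also belong to the gene model Gm49369, which had no read in any library.

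Ctsl (ENSMUSG00000021477, chr13:64359337-64370890), encoding cathepsin L, a cysteine protease that also acts outside the cell, was the most strongly lowered peptidase gene. Levels were 1392, 1510.1, 1578 and 1472 CPM in untreated and 889, 884, 905 and 881 CPM in TGFβ1-treated SV-LECs. The treated libraries were the tighter group and all lay below the untreated ones (log2 fold change -0.74, SE 0.0438, edgeR FDR = 1.36e-62). Lgmn, encoding legumain, an asparagine-specific protease that processes cathepsin precursors, fell from 308 ± 4.71 CPM to 199.8 ± 4.56 CPM (SD, n = 4). Exons of Ctsl overlap the gene models Gm47123 and Gm49230, which had no read in any library.

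Among the remaining peptidases, Ctsh, encoding the aminopeptidase cathepsin H, rose from 10.3 ± 0.795 CPM to 23.0 ± 1.84 CPM (SD, n = 4; log2 fold change 1.15). Ctsk, encoding the collagen-degrading cathepsin K of osteoclasts, was low in both groups and rose from 2.69 ± 0.217 CPM to 4.34 ± 0.396 CPM. Smaller rises were seen for Ctsb (0.35 on the log2 scale) and Ctsz (0.20), encoding cathepsins B and Z. Ctsa, Ctsc and Ctso, encoding cathepsins A, C and O, had log2 fold changes of -0.033, 0.10 and 0.0071 and did not pass the test. On the opposite strand, exons of Ctsa overlap Pltp, which had a log2 fold change of 2.90, and exons of Ctsb overlap Fdft1, with a log2 fold change of -1.32; the use of strand in counting is not given in the sources used here, and what such reads contributed was not tested.

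As a share of the reads on all peptidase genes, Ctsl went from 42.8% ± 0.702 to 23.0% ± 0.565 (SD, n = 4), with no overlap between the groups. Over the same libraries Ctsd went from 7.29% ± 0.299 to 17.8% ± 0.176 and Tpp1 from 4.71% ± 0.209 to 12.1% ± 0.567. The summed level of the 13 peptidase genes went from 3476 ± 125 CPM to 3865 ± 85.3 CPM, a ratio of 1.11. The shares of single genes therefore moved further than the sum, as the stacked bars show.

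The glycosidases, which strip sugars from glycoproteins, glycolipids and glycosaminoglycans, held the largest single change. Of 11 tested, 6 rose, 3 fell and 2 did not pass, beside 37.6% higher and 38.0% lower among all genes tested. The median log2 fold change was 0.15. Man2b1 (ENSMUSG00000005142, chr8:85083270-85098282) encodes the lysosomal α-mannosidase, which trims mannose from N-linked glycans. Its level was 105, 107, 112 and 110.0 CPM in untreated replicates 1 to 4 and 722, 799.7, 744 and 701 CPM in TGFβ1-treated replicates 1 to 4. The groups were separated by a wide gap, with a rise of 6.83-fold (log2 fold change 2.77, SE 0.0490). The FDR of the likelihood ratio test was too small to be represented, and edgeR's quasi-likelihood test gave an FDR of 6.26e-15. Man2b1 made up 8.92% ± 0.317 of the reads on glycosidase genes without and 35.4% ± 1.62 with TGFβ1 (SD, n = 4).

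Leaving Man2b1 out, the summed level of the glycosidases still went from 1109 ± 29.6 CPM to 1352 ± 24.7 CPM (SD, n = 4). Fuca1, encoding α-L-fucosidase, rose from 100.5 ± 3.02 CPM to 218 ± 6.84 CPM (log2 fold change 1.12). Gusb, encoding β-glucuronidase, rose from 96.1 ± 4.59 CPM to 161 ± 2.93 CPM (log2 fold change 0.74). Both were past 1.5-fold, unlike the rises of Gla (α-galactosidase A, 0.36 on the log2 scale), Gaa (acid α-glucosidase, 0.26) and Manba (β-mannosidase, 0.15).

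Glycosidases that fell numbered 3. Glb1, encoding β-galactosidase, fell from 85.2 ± 3.07 CPM to 60.2 ± 1.71 CPM (log2 fold change -0.50). Idua (α-L-iduronidase) and Naglu (N-acetyl-α-glucosaminidase), which act on heparan sulfate, had log2 fold changes of -0.27 and -0.19. Hexa, encoding the α subunit of β-hexosaminidase, and Neu1, encoding a sialidase, had log2 fold changes of 0.011 (SE 0.0419) and 0.044 (SE 0.0640) and did not pass. Exons of Idua overlap those of Dgkq on the opposite strand, whose mean count went from 621 to 1662 reads.

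The sulfatases, which remove sulfate groups from glycosaminoglycans and sulfolipids, showed no common direction. Of 5 tested, 1 rose, 2 fell and 2 did not pass, beside 37.6% higher and 38.0% lower among all genes tested. Their median log2 fold change was -0.05, and their summed level was 304 ± 3.79 CPM in untreated and 303 ± 4.31 CPM in treated libraries. Sgsh (ENSMUSG00000005043, chr11:119343425-119355536), encoding heparan N-sulfatase, was at 22.5, 21.0, 22.5 and 20.9 CPM without and 16.0, 14.6, 16.6 and 14.6 CPM with TGFβ1. All treated libraries lay below all untreated ones (log2 fold change -0.50, SE 0.0711, edgeR FDR = 8.57e-12). Galns, which acts on keratan sulfate and chondroitin 6-sulfate, also fell (log2 fold change -0.45), and Arsb, which acts on dermatan and chondroitin sulfate, rose (0.32). Ids (iduronate 2-sulfatase, -0.020) and Arsa (arylsulfatase A, -0.051) did not pass the test. On the opposite strand, 21.6% of the exon bases of Sgsh and 39.9% of those of Arsb lie in other gene models, of which Card14 (0 to 1 read per library) and Gm47210 (0 to 5 reads) were counted.

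Of the 4 lipid hydrolases, 3 rose and none fell, beside 37.6% higher and 38.0% lower among all genes tested. Lipa (ENSMUSG00000024781, chr19:34492318-34527474), encoding the acid lipase that frees cholesterol and fatty acids from lipoprotein lipids, led them with 143, 150.3, 149 and 159 CPM in untreated and 218, 230.3, 207 and 205 CPM in treated libraries. The groups did not overlap (log2 fold change 0.52, SE 0.0498, edgeR FDR = 1.91e-24). Ppt1, which removes fatty acids from proteins, and Smpd1, the acid sphingomyelinase, had log2 fold changes of 0.23 and 0.18. Asah1, the acid ceramidase, averaged 269 ± 7.79 CPM and 268 ± 6.74 CPM and did not pass (log2 fold change -0.0068).

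Most of the luminal cofactors present lipids to the hydrolases or carry them. Of the 4, 3 rose and 1 fell, beside 37.6% higher and 38.0% lower among all genes tested. One of the 3 was Grn, whose call was lost as described above, which left 2 risers with DESeq2. Gm2a (ENSMUSG00000000594, chr11:55098115-55113029), encoding the activator that lifts GM2 ganglioside out of membranes for β-hexosaminidase, had the largest fall of all members. It was at 123, 122, 129.6 and 129 CPM in untreated and 55.9, 59.5, 61.9 and 60.2 CPM in TGFβ1-treated libraries. No treated library came near an untreated one (log2 fold change -1.08, SE 0.0479, edgeR FDR = 2.59e-111). Psap (ENSMUSG00000004207, chr10:60277627-60302597), encoding the precursor of the saposins, which serve other sphingolipid hydrolases, moved the other way, from 1333, 1366, 1344 and 1286 CPM to 1619, 1645, 1617 and 1633 CPM. Its groups did not overlap either, although the log2 fold change was only 0.29 (SE 0.0366, edgeR FDR = 7.89e-15). Npc2, which carries cholesterol in the lumen, rose by 0.16 on the log2 scale.

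All 7 lysosomal membrane genes rose, with log2 fold changes between 0.25 and 0.71 and a median of 0.39, and none of them passed the 1.5-fold test. The share higher among all genes tested was 37.6%. Lamp1 (ENSMUSG00000031447, chr8:13159161-13175338) encodes one of the most abundant glycoproteins of the membrane. It was at 979, 1067, 1114 and 1073 CPM in untreated and 1518, 1550.2, 1523 and 1542 CPM in treated libraries. The treated libraries lay close together and well above every untreated one (log2 fold change 0.53, SE 0.0442, edgeR FDR = 9.50e-33). Lamp2, its relative with a role in chaperone-mediated autophagy, rose by 0.25 on the log2 scale.

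Scarb2, an integral membrane glycoprotein of the scavenger receptor B family, rose from 998 ± 55.3 CPM to 1309 ± 27.1 CPM (SD, n = 4). Rises of 0.40, 0.38 and 0.25 on the log2 scale were measured for Npc1, the cholesterol exporter, Mcoln1, a calcium channel, and Cd63, a tetraspanin. Cln3 (ENSMUSG00000030720, chr7:126571207-126585817) had the largest log2 fold change of the membrane genes and the lowest level. It was at 2.22, 2.37, 3.32 and 3.14 CPM in untreated and 4.76, 5.06, 3.74 and 4.50 CPM in treated libraries, so that the gap between the groups was small (log2 fold change 0.71, SE 0.155, edgeR FDR = 7.77e-06). On the opposite strand, 7.65% of its exon bases overlap Apobr, which had a log2 fold change of 0.60. GENCODE M21 has no gene over its exons on the same strand, but the annotation used for counting is not given in the sources used here, and reads shared with a gene model of another release could lower its level and rank.

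**Figure D2:**
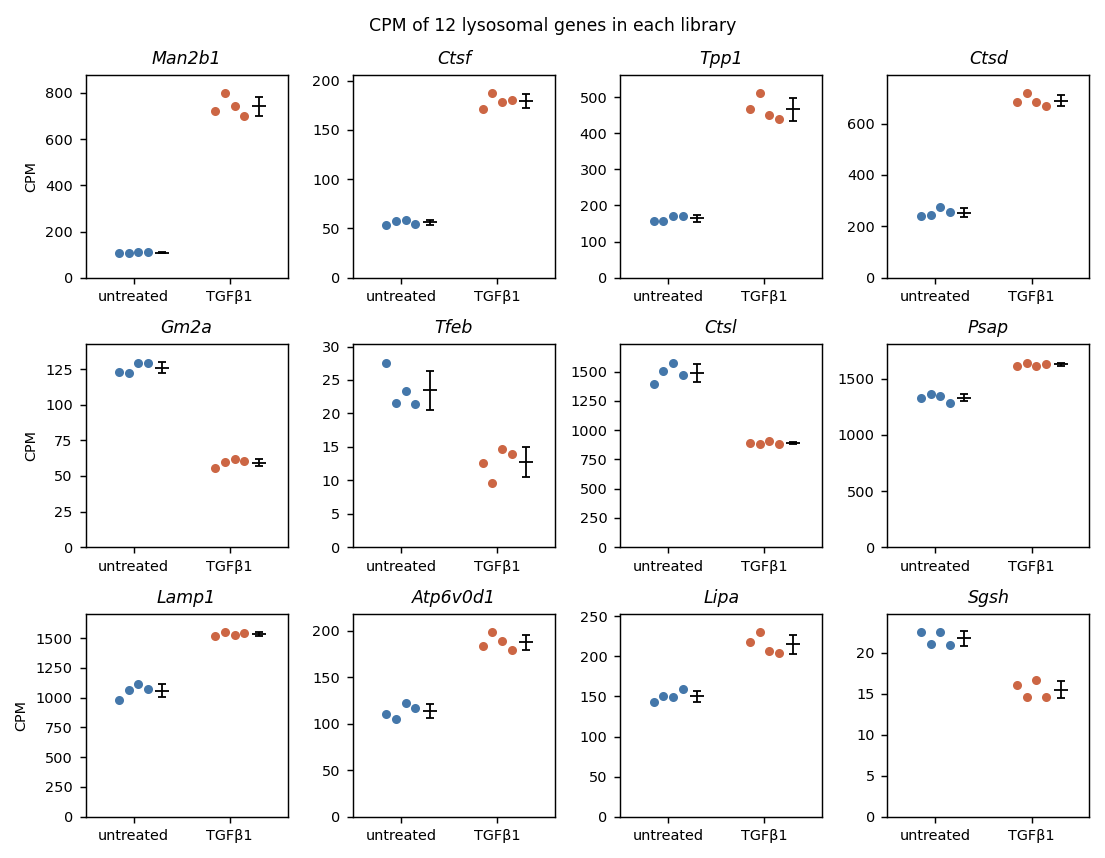
CPM (y axes, from 0) of 12 lysosomal genes in each of the 4 untreated (blue) and 4 TGFβ1-treated (orange) libraries, with the mean ± SD in black. The groups do not overlap in any of the 12, and the treated libraries lie lower for Gm2a, Tfeb, Ctsl and Sgsh.

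The vacuolar proton pump has a cytosolic sector, V1, which splits ATP, and a membrane sector, V0, which carries protons. Of the 7 members that encode its subunits or accessory proteins, 4 rose, 2 fell and 1 did not pass. Among all genes tested, 37.6% were higher and 38.0% lower. The median log2 fold change of the 7 was 0.28. Atp6v0d1 (ENSMUSG00000013160, chr8:105524465-105566047), encoding the d subunit of V0, was at 110.5, 105, 122 and 117 CPM in untreated and 184, 199, 189 and 179.7 CPM in treated libraries. It was the pump gene that passed the 1.5-fold test among the members (log2 fold change 0.73, SE 0.0537, edgeR FDR = 2.20e-40). The catalytic A subunit and its partner B, which alternate in the V1 ring, moved apart: Atp6v1a rose by 0.28 on the log2 scale and Atp6v1b2 fell by 0.37. Atp6v1h, a regulatory V1 subunit, and Atp6ap1, an accessory protein, rose by 0.35 and 0.30 on the log2 scale, and Atp6ap2, the other accessory protein, fell by 0.13. Atp6v0a1, an isoform of the a subunit of V0, had a log2 fold change of 0.089 (edgeR FDR = 0.0966).

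Pump subunits outside the member list were read from the same fit. Of 13 tested, 9 rose and 3 fell, with a median log2 fold change of 0.35, beside 37.6% higher and 38.0% lower among all genes tested. The groups of 2 of the 9, Atp6v0c and Atp6v1g2, overlapped and their calls were lost with DESeq2 (FDR = 0.105 and 0.159), and leaving out a library gave 7 to 10 risers (7 without TGFβ1 replicate 4). Other isoforms of the a subunit gave the largest rises, with Tcirg1 (a3) going from 98.4 ± 4.96 CPM to 292 ± 7.67 CPM (log2 fold change 1.57) and Atp6v0a2 (a2) from 92.0 ± 2.53 CPM to 151 ± 3.60 CPM (0.72). The falls were largest for Atp6v1b1, another B isoform, at 6.54 CPM and 2.32 CPM (-1.496), and Atp6v1g1, a G subunit (-0.60). Both B isoforms therefore fell, while the 3 a isoforms measured had log2 fold changes of 0.089, 0.72 and 1.57.

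The transcription factors moved against the majority of the members or hardly at all. Tfeb (ENSMUSG00000023990, chr17:47737030-47792419), encoding the factor best known for switching on lysosomal genes, was at 27.6, 21.6, 23.4 and 21.3 CPM in untreated and 12.5, 9.59, 14.7 and 14.0 CPM in TGFβ1-treated libraries. Its replicates were among the most spread of all members, yet the groups did not overlap (log2 fold change -0.88, SE 0.120, edgeR FDR = 7.24e-13). Tfe3 averaged 81.6 ± 2.50 CPM and 87.2 ± 1.34 CPM (log2 fold change 0.097, edgeR FDR = 0.0365), and this call was lost with DESeq2 (FDR = 0.0638) and in 5 of the 8 fits that left out a library. Activity of both proteins is set largely by phosphorylation and movement to the nucleus, which RNA levels do not report.

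Levels of different genes were compared per kilobase of exon. Psap stood highest in both groups (485 ± 12.3 and 594 ± 4.87 CPM per kb, SD, n = 4), followed by Lamp1 (396 ± 21.3 and 573 ± 5.75). The third place changed hands, from Ctsl in untreated cells (229 ± 11.97 CPM per kb) to Ctsd after TGFβ1 (293 ± 9.30 CPM per kb). Ctsl then ranked 8 with 137 CPM per kb, and Ctsd had ranked 10 before treatment with 108 CPM per kb. Man2b1 moved from rank 34 to 12 and Ctsf from 38 to 24, while Gm2a moved from 25 to 36 and Lgmn from 6 to 16. Neighbours in this order often did not differ beyond their spread, as for Lgmn (133 ± 2.03) and Cd63 (131 ± 2.72 CPM per kb) in untreated cells. Lengths were those of all annotated exons of a gene merged, so a gene with long exons that are rarely used appears lower than its transcripts are.

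**Figure D3:**
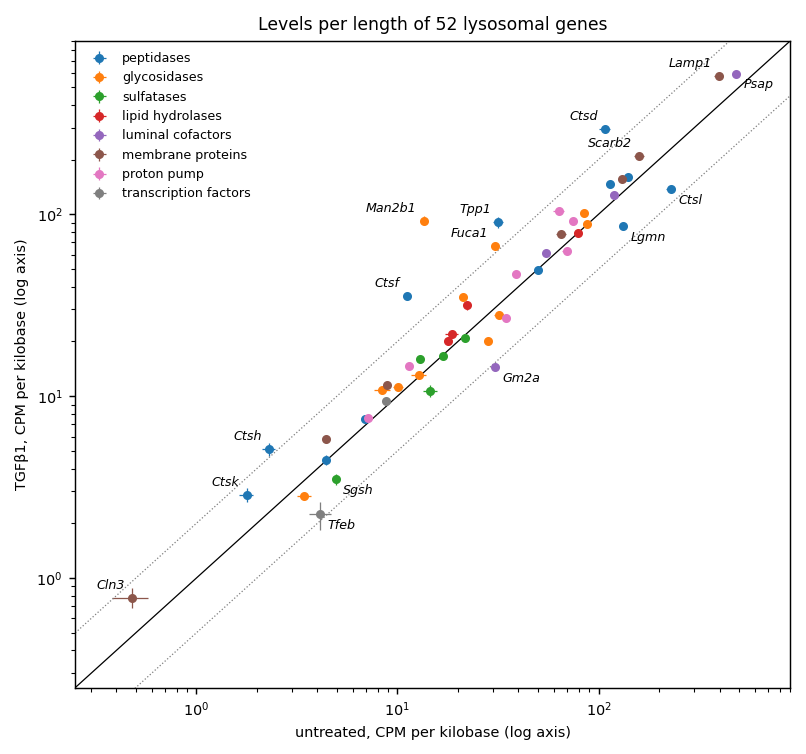
Mean level of the 52 tested lysosomal genes in CPM per kilobase of exon, untreated (x) against TGFβ1-treated (y), on log axes with SDs over 4 libraries; the solid line marks equality and dotted lines 2-fold. Man2b1, Ctsf, Tpp1, Ctsd, Ctsh and Fuca1 lie above the upper dotted line and Gm2a below the lower one.

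Summed over all members, lysosomal transcripts took 1.22% of the scaled reads without and 1.502% with TGFβ1, or 12199.7 ± 358 CPM and 15019 ± 226 CPM (SD, n = 4), a ratio of 1.23. Without Man2b1, Ctsd, Tpp1 and Ctsl the sum still went from 10186 ± 258 CPM to 12233 ± 135 CPM. By role the ratio was highest for the glycosidases at 1.72 and the membrane proteins at 1.31, and closest to equal for the sulfatases.

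Further genes of the pathway, on lists that do not overlap with the members, were read from the same fit. Among 19 further hydrolases, 11 rose and 5 fell, with a median log2 fold change of 0.20, beside 37.6% higher and 38.0% lower among all genes tested. The largest rises were those of Hyal1, which cuts hyaluronan, from 6.15 ± 0.529 CPM to 45.4 ± 3.83 CPM (log2 fold change 2.88), and Ctsw, encoding cathepsin W, from 3.53 ± 0.662 CPM to 16.1 ± 1.04 CPM (2.18). Scpep1, a serine carboxypeptidase (-0.78 on the log2 scale), and Galc, the galactosylceramidase (-0.67), had the largest falls. Among 16 further membrane proteins, 12 rose and 3 fell, with a median of 0.25. The rises were led by Cd68, which is also a macrophage marker (1.19), and the nucleoside transporter Slc29a3 (0.74), and the falls by Slc17a5, which exports sialic acid (-0.26), and Tmem192 (-0.14).

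Of 15 genes for mannose 6-phosphate tagging and other steps in maturation, sorting or export of lysosomal enzymes, 7 rose and 3 fell. Their median was 0.10, and the background was 37.6% higher and 38.0% lower among all genes tested. Gnptg, the γ subunit of the tagging enzyme, rose from 14.2 ± 1.07 CPM to 28.5 ± 1.56 CPM (log2 fold change 1.01). The sorting receptor Sorl1 was low, at 2.50 CPM in untreated and 5.58 CPM in treated libraries, and rose by 1.16 on the log2 scale. Cln6, an endoplasmic reticulum protein for export of lysosomal enzymes, and the receptor Sort1 had log2 fold changes of -0.58 and -0.48. Of 7 tested genes on a list of protease inhibitors, most of them inhibitors of cathepsins, 5 rose and 1 fell, with a median of 0.47. The median was 0.99 without the filter on low counts, with more genes tested, and 3 rose with a filter of 1 CPM in 4 libraries, with fewer tested. Ctla2a, an inhibitor of cathepsin L in rodents, rose from 19.2 ± 1.38 CPM to 132 ± 8.01 CPM (2.78), with the reservation that it has a close paralogue, Ctla2b, with which reads can be shared. Cst6 (cystatin E/M) was near the floor in untreated cells at 0.1247 CPM and reached 1.38 CPM after TGFβ1, and Lxn (latexin, an inhibitor of metallocarboxypeptidases and not of cathepsins) was the gene that fell, by 0.27 on the log2 scale.

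Of 19 tested genes that control TFEB or form the nutrient sensor mTORC1 at the lysosomal surface, 10 rose and 4 fell. Their median was 0.15, and the background was 37.6% higher and 38.0% lower among all genes tested. Scaled by total counts alone, 6 rose and the median was 0.086. The largest rises were those of Rragd, a GTPase of the sensor, which was low at 0.667 CPM and 1.78 CPM (1.36 on the log2 scale), and Tsc2, a brake on mTORC1 (0.68). Mitf, a relative of TFEB, and Lamtor5, a part of the Ragulator scaffold, both had log2 fold changes of -0.46.

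**Figure D4:**
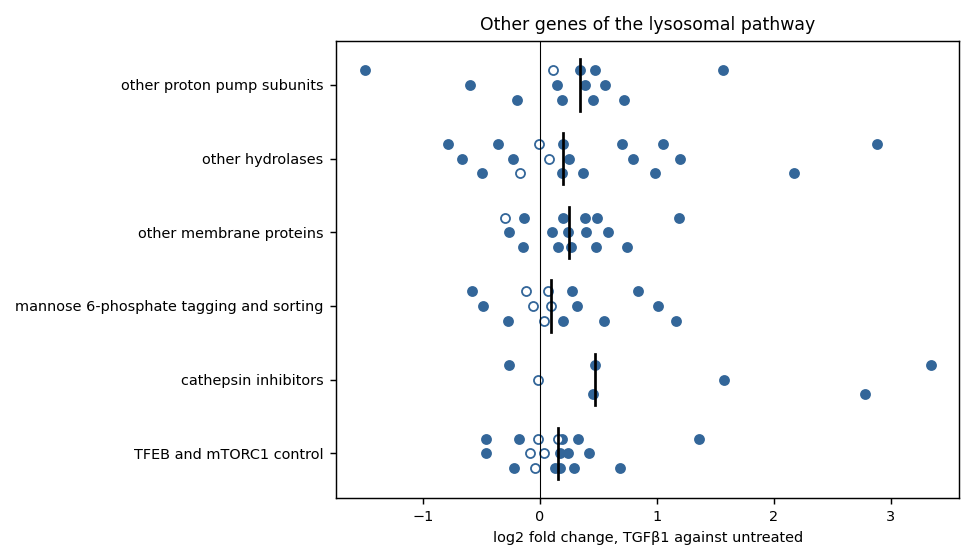
Log2 fold change, TGFβ1 against untreated (x axis), of each tested gene in 6 further lists of the lysosomal pathway. Filled points passed an FDR of 0.05, open points did not, and black bars mark the medians, which lie between 0.10 and 0.47.

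Markers of other cell types, among them macrophages and osteoclasts, which are rich in lysosomes, were read in the same libraries. Of 10 macrophage and monocyte markers, 8 had a mean under 1 CPM over all libraries and Adgre1 had no read in any; the sum of the list was 15.9 to 18.9 CPM in untreated and 31.7 to 33.9 CPM in treated libraries, most of it Cd68 and Cd14. Of 5 osteoclast markers, Calcr, Ocstamp and Dcstamp had no read in any library, and the sum was 6.69 to 9.05 CPM and 7.11 to 8.56 CPM. Of 8 fibroblast and mural markers, 3 had a mean under 1 CPM, and the sum moved with treatment, from 3207 to 4542 CPM to 5541.5 to 6670.5 CPM, most of it Col1a1. Of the 6 tested, 4 rose and 2 fell, beside 37.6% higher and 38.0% lower among all genes tested. The 4 were Col1a1, Pdgfrb (from 44.7 to 69.3 CPM), Des (from 1.69 to 7.15 CPM) and Myh11 (from 0.239 to 0.877 CPM). The 2 were Pdgfra (from 160.0 to 57.8 CPM) and Dcn (from 312 to 83.0 CPM). The part of such changes in the lysosomal results was not tested.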

How the data were processed

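Libraries were prepared with a stranded poly(A) kit and read at a single end of 75 bases, per the labels. The submitters' processing notes name bcl2fastq 2.20.0.422, STAR 2.7.3a and featureCounts 1.5.1. The authors mapped the reads to GRCm38 and deposited unnormalized read counts per gene; the annotation release and the strand setting of the counting are not given in the sources used here, so reads of overlapping genes may have been split or dropped in ways that could not be examined.

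The study's choice of test was followed with edgeR 4.0.16 under R 4.3.3: filterByExpr, TMM normalization, glmFit and glmLRT with the Benjamini-Hochberg FDR over the 13818 genes that passed the filter, and glmTreat against 1.5-fold. Genes of which 3 counts or fewer were seen are at the floor, which covers counting error only. CPM used TMM-scaled library sizes, and exon lengths, positions and overlaps came from GENCODE M21. The pipeline was run on simulated counts in which few genes changed. In the data 75.6% of genes were called, so that run cannot check the scaling or the FDR here. The members, role groups, marker lists and pathway lists were chosen with earlier results of these data known. The 3 members with the largest rise and fall, the 3 highest per length and the largest change in each role group were given per library; of each other list the 2 largest rises and falls were named, and markers by their lists.

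Alternatives were the quasi-likelihood test, DESeq2 1.42.0, its size factors in edgeR, total counts, no filter or one of 1 CPM in 4 libraries, a stricter FDR (0.01), a prior count of 2, a test against 2-fold, a replicate block, the core motif, and each library left out. No 2 libraries of a group agreed within sampling noise (chi-square per degree of freedom 2.37 to 7.84).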

Additional observations from a re-analysis of the deposited data

Results flagged for a closer look

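In 4 of 104 groups of 4 libraries 1 library stood apart by Dixon's criterion for 4 values, which chance gives in about 1 in 20 groups. Lgmn was 315 CPM in untreated replicate 2 and 305 to 306 CPM in the other untreated libraries. Fuca1 was 96.0 CPM in untreated replicate 2 and 102 to 103 CPM in the others. Ppt1 was 60.9 CPM in untreated replicate 1, against 70.3 to 72.0 CPM, and Npc1 was 47.5 CPM in untreated replicate 3, against 50.6 to 51.0 CPM. All 4 are untreated libraries and 3 of the 4 values are low. Each gene's groups stayed apart with the library included, and its call was kept when that library was left out.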

How the results depend on the processing

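Of 32 members called higher, 29 kept their direction and call under every alternative and with every library left out, as did all 11 called lower; the exceptions were Manba, Grn and Tfe3. Member counts were 29 to 32 higher and 11 to 13 lower (32 and 11 by the quasi-likelihood test, 30 and 11 by DESeq2, 29 and 13 with total counts). The replicate numbers did not pair the libraries (correlations of same-numbered deviations -0.193 to -0.0336), and with the replicate block 30 members were higher, 11 lower and 0 transcription factors higher, beside 5075 higher and 5077 lower of all genes; the losses were Grn and Tfe3. Tfe3 was also lost with DESeq2, total counts, no filter and an FDR of 0.01, each leaving 0 transcription factors higher.

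Against 2-fold, 5 members were higher and 0 lower, and 1082 and 608 of all genes. With total counts, which lowered the median of all genes to -0.07, the median log2 fold changes were 0.14 for the members, 0.21 for peptidases, 0.078 for glycosidases, -0.12 for sulfatases, 0.13 for lipid hydrolases, 0.058 for luminal cofactors, 0.32 for membrane proteins, 0.21 for the proton pump, 0.28 for its other subunits, 0.19 for other membrane proteins, 0.40 for cathepsin inhibitors and 0.086 for TFEB and mTORC1 control; 6 genes of that last list were higher and 5 sorting genes lower, and Ctso (-0.060), Hexa (-0.056) and Neu1 (-0.024), none of them called, changed sign. Without a filter the medians were 0.18 for the members, 0.25 for peptidases, 0.11 for glycosidases, 0.17 for lipid hydrolases, 0.25 for the proton pump, 0.22 for other membrane proteins, 0.99 for cathepsin inhibitors (more genes tested, and 1.02 with DESeq2) and 0.12 for TFEB and mTORC1 control, and Ctso (-0.024) and Hexa (-0.020) changed sign. With 1 CPM in 4 libraries they were 0.22 for lipid hydrolases and 0.28 for other membrane proteins, and 3 cathepsin inhibitors were higher, fewer being tested. Asah1, not called, was at 0.0072 there and at 0.0012 with DESeq2 size factors. An FDR of 0.01 left 1 other membrane protein lower, a prior count of 2 gave TFEB and mTORC1 control a median of 0.13, and the core CACGTG stood in 34.8% of members. Where no construction is named, the cause was not tested.

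Leaving out each library gave medians of 0.18 to 0.23 for the members, 0.11 to 0.18 for glycosidases, 0.17 to 0.21 for lipid hydrolases, 0.25 to 0.30 for the proton pump, 0.28 to 0.35 for its other subunits and 0.13 to 0.17 for TFEB and mTORC1 control, 0 to 1 transcription factors higher and 1 to 3 other membrane proteins lower (1 without TGFβ1 replicate 2). Ctso ranged from -0.026 to 0.053, Hexa from -0.0066 to 0.031 and Asah1 from -0.030 to 0.0068. Grn kept its call only without untreated replicate 3. Tfe3 lost its call without untreated replicate 1 or 2 or TGFβ1 replicate 1, 2 or 4. Technical replicates and depth limit these results: members at few CPM, such as Cln3 and Ctsk, carry the largest errors.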

Other observations

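The enzymes were also sorted by substrate, a grouping made after the values had been seen and therefore given without a test. Its counts stand beside 37.6% higher and 38.0% lower among all genes tested. Of 9 enzymes that act on glycosaminoglycans (Idua, Ids, Sgsh, Naglu, Gusb, Galns, Arsb, Glb1 and Hexa), 2 rose, 5 fell and 2 did not pass. The median log2 fold change was -0.19. Their summed level was nevertheless higher after TGFβ1, at 668 to 694 CPM in untreated and 702 to 717 CPM in treated libraries. The 2 that rose were Gusb and Arsb. Of 4 listed for glycoprotein sugars (Man2b1, Manba, Fuca1 and Neu1), 3 rose and none fell. Their sum went from 319.7 to 338 CPM to 1051 to 1147 CPM. Glb1 (log2 fold change -0.50, lower) and Hexa (0.011, not called) were counted with the glycosaminoglycan and sphingolipid enzymes and not here. Both enzymes also act on glycoprotein sugars, so these counts depend on how the sets were drawn. The 3 genes for handling cholesterol in lysosomes, Lipa, Npc1 and Npc2, all rose, from a sum of 479 to 507 CPM to 591 to 634 CPM. Of 8 enzymes and activators for sphingolipids, 3 rose, 2 fell and 3 did not pass.

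A few genes outside the naming rule are given because their values stood out once seen. Man2b2, a relative of Man2b1, rose from 135 to 267 CPM (log2 fold change 0.98), and Igf2r, the large mannose 6-phosphate receptor, from 205 to 367 CPM (0.84). M6pr, the small receptor for the same tag, averaged 175 and 168 CPM and did not pass the test (-0.06).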
